A study of Homo sapiens with 18 samples.

Results

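Chromatin accessibility was examined at 10 genes of nucleotide excision repair and translesion synthesis in 6 human cancer cell lines. The genes were ERCC1, ERCC2, ERCC3, ERCC4, ERCC5, XPA, XPC, DDB2, REV3L and POLH, chosen by name. Accessibility was measured by ATAC-seq, in which the Tn5 transposase cuts and tags open DNA, and is given as FPKM in windows of 1000 bp. Of the 89428 windows in the deposited table, 57 overlapped the span of 1 of these 10 genes extended by 10000 bp on each side. All 10 genes had the window at their transcription start site (TSS) in the table, as did 13699 of 20163 protein-coding genes. A TSS window is the one that holds the first base of the canonical transcript, and all windows have the same length, so FPKM needs no correction for length. The windows lie on a fixed grid, and the start lies 101 bp (XPC) to 925 bp (DDB2) into its window. TSS windows therefore cover different parts of each promoter, and the order of members within a line can depend on this placement.

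Each line was sampled with 3 libraries, 18 in all, and each platinum-resistant line is paired with the sensitive line of the same origin, giving 3 pairs. CP70 was selected in culture from A2780, which is labelled an endometrial or ovarian cancer line. PEA1 and PEA2 came from 1 patient with high-grade serous ovarian cancer before platinum treatment and after resistant relapse. PEO1 and PEO4 also came from a single patient with this cancer. Both were taken after platinum-based chemotherapy, PEO1 before and PEO4 after clinical resistance. All libraries came from cells grown in RPMI-1640 with serum, and the labels give no drug for them. Each line stands for 1 patient or 1 culture selection, so a comparison of resistance over lines has 3 pairs. The labels do not say whether replicates were separate cultures, so p-values measure the spread between these libraries, which may be technical.

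Nucleotide excision repair removes bulky DNA lesions, including the intrastrand crosslinks made by cisplatin. XPC and the DDB2 complex find the lesion, the helicases ERCC3 and ERCC2 of the transcription factor TFIIH open the DNA around it, XPA holds the complex, and the nucleases ERCC5 and ERCC1-ERCC4 cut the damaged strand on either side. Translesion synthesis lets replication pass a lesion that remains: POLH (polymerase eta) can insert bases opposite a platinum crosslink, and REV3L, the catalytic subunit of polymerase zeta, extends from there. ERCC1 and ERCC4 also take part in the repair of interstrand crosslinks.

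Depth and signal differed between lines more than between replicates. The read totals recovered from the FPKM steps ran from 8972042 to 60495462 per library. The share of a library's reads that fell in the table's windows averaged 9.25% for A2780 and 13.1% for CP70, then 15.2% and 18.9% for PEA1 and PEA2, and reached 39.9% for PEO1 and 34.4% for PEO4. The median TSS window of protein-coding genes was at 2.03, 3.15, 3.19, 2.61, 7.30 and 7.20 FPKM in the same order. Member TSS windows held 23 to 417 reads per library, with a median of 85.5. CP70 replicate 1 stood apart from the other 2 CP70 libraries, with 15.6% of its reads in the table against 11.8% in both others, and was the highest CP70 library at all 10 member TSS windows. Of the marker genes examined, all 6 epithelial TSS windows were in the table, with a summed level from 4.89 FPKM in A2780 to 47.3 FPKM in PEO4, beside 3 of 4 Müllerian or serous, 1 of 4 leukocyte (CD14), 0 of 3 fibroblast and 0 of 3 endothelial windows. In bulk libraries, fewer cells with an open site and less opening per cell cannot be told apart.

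Member TSS windows had a median GC content of 58.7%, against 62.5% over all 12722 TSS windows of the table. The GC box (GGGCGG, either strand) was present in 8 of the 10 and in 90.7% of all TSS windows, and the CCAAT box (CCAAT, either strand) in 8 of the 10 and in 61.6%. REV3L held the most GC boxes, 11 in its window, and ERCC1 and ERCC4 held 0. The stretches below lie just upstream of the starts of 3 members, outside every annotated exon, and are shown because REV3L varied most between lines, POLH passed the test in each of the 3 pairs and XPC shares its start region with another gene. They are read from GRCh37 in the direction of the gene, and capitals mark GC boxes. REV3L is taken from chr6:111804433-111804661 (reverse strand), POLH from chr6:43543776-43543921 (forward strand) and XPC from chr3:14220122-14220316 (reverse strand).
REV3L: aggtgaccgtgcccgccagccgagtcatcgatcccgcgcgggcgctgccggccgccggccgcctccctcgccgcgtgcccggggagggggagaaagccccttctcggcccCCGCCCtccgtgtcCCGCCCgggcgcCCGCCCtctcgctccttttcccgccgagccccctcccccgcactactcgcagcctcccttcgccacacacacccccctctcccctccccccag
POLH: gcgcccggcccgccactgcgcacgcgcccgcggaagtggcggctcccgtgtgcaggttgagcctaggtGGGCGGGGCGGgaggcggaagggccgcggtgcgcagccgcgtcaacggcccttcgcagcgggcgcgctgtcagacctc
XPC: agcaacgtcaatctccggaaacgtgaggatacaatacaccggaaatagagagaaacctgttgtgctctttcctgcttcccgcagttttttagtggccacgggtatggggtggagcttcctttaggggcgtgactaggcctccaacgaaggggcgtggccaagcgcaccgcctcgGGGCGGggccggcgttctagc
The POLH stretch holds 2 overlapping GC boxes and is bounded by the divergent XPO5, whose start lies 147 bp from that of POLH. The XPC stretch lies between XPC and the divergent LSM3, whose start is 216 bp away, so its window cannot assign signal to either gene. No exon-free stretch was found in the 300 bases upstream of ERCC1 or ERCC2.

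The first comparison asked how open these starts were in each line. All 10 member TSS windows differed among the 6 lines (limma F test, adjusted p below 0.05), as did 99.5% of all TSS windows. PEO1 and PEO4 held the 2 highest line means at all 10 members, and also the highest shares of reads in windows. Percentiles among all TSS windows of a line remove that shared shift, and the median member lay between percentile 47.0 in PEA2 and 66.7 in PEO4.

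**Figure D1:**
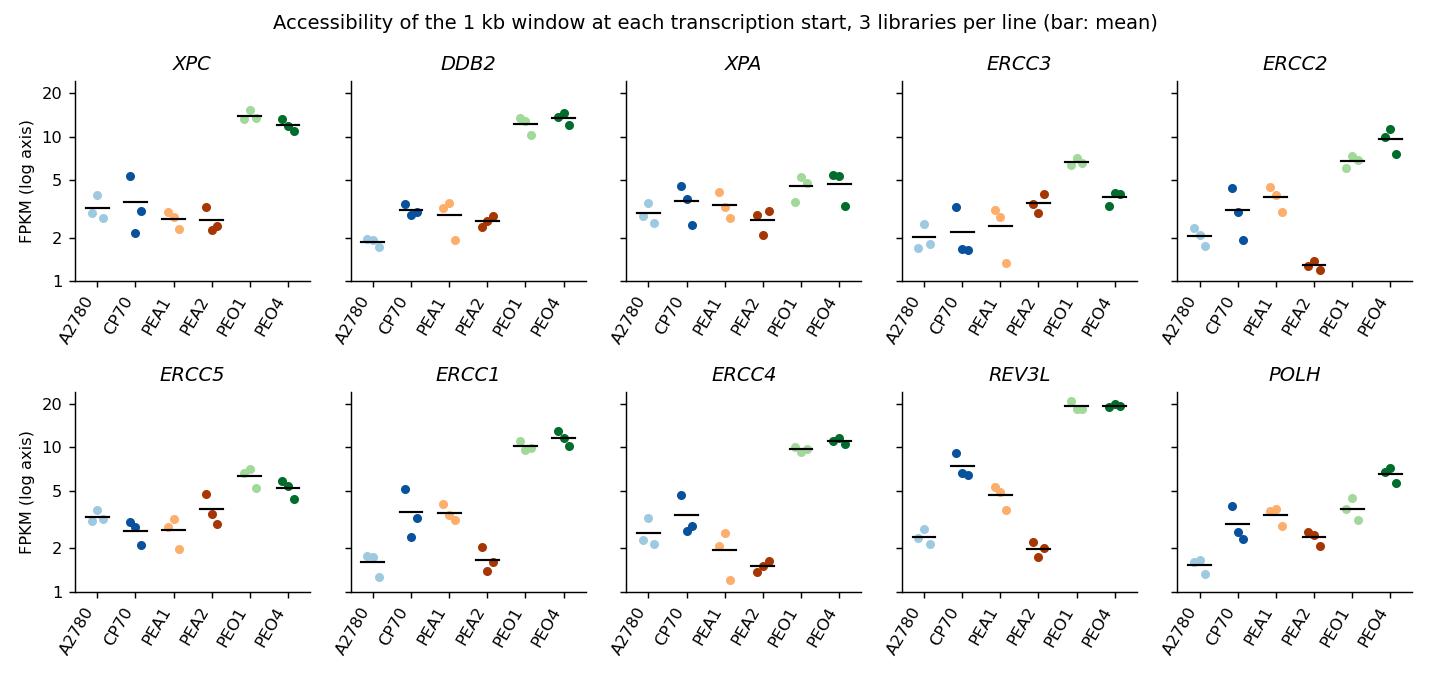
FPKM of the TSS window of each member on a log axis, with 1 point per library, 3 libraries for each of the 6 lines, and a bar at the mean. PEO1 and PEO4 sit highest throughout, REV3L spans 1.98 to 19.5 FPKM between line means, and XPA spans the least.

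Among the lesion sensors, the XPC window (chr3:14220001-14221000) was at 14.0 ± 1.052 FPKM (SD, n = 3) in PEO1 and 12.04 ± 1.10 in PEO4, and between 2.63 and 3.53 in the other 4 lines. No neighbours in the order of those 4 lines differed beyond their spread. The DDB2 window (chr11:47235601-47236600) was at 12.2 ± 1.70 FPKM in PEO1 and 13.4 ± 1.31 in PEO4, and lowest in A2780 at 1.88 ± 0.14, which differed from the next line, PEA2 at 2.60 ± 0.24. By TSS window, XPC at percentile 79.1 and DDB2 at 73.7 were the most open members of PEO1 after REV3L.

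The factors that open and verify the lesion were less alike. ERCC3 (chr2:128051101-128052100) was highest in PEO1 at 6.67 ± 0.36 FPKM, which differed from PEO4 at 3.79 ± 0.42. ERCC2 (chr19:45873001-45874000) was at 9.56 ± 1.85 FPKM in PEO4 and 6.77 ± 0.64 in PEO1, and its lowest line, PEA2 at 1.28 ± 0.10, differed from A2780 at 2.04 ± 0.29. XPA (chr9:100458901-100459900) was the most even member: its line means ran from 2.67 ± 0.52 FPKM in PEA2 to 4.71 ± 1.23 in PEO4, a range of 0.78 on the log2 scale, and no neighbours in its order differed. XPA stood at percentile 73.6 among TSS windows in A2780 and at 29.7 in PEO1.

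Of the nucleases, ERCC4 (chr16:14013901-14014900) had line means 2.80 apart on the log2 scale, from 1.51 ± 0.13 FPKM in PEA2 to 11.1 ± 0.53 in PEO4. Its dimer partner ERCC1 (chr19:45927001-45928000) spanned the same 2.80, from 1.60 ± 0.28 FPKM in A2780 to 11.6 ± 1.38 in PEO4. Only the step from PEO1 to CP70 separated neighbours at ERCC4, whereas ERCC1 also had a step between PEA1 and PEA2. ERCC5 (chr13:103498201-103499200), which cuts on the other side of the lesion and whose window is shared with the read-through gene BIVM-ERCC5, ranged from 2.65 ± 0.49 FPKM in CP70 to 6.33 ± 0.96 in PEO1.

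Of the translesion polymerases, REV3L (chr6:111804301-111805300) had the widest range of all members, 3.24 on the log2 scale. It was the most open member in PEO1 (19.3 ± 1.52 FPKM), PEO4 (19.5 ± 0.49), CP70 (7.39 ± 1.47) and PEA1 (4.64 ± 0.85), but not in A2780 (2.41 ± 0.29) or PEA2 (1.98 ± 0.23). PEO1, CP70 and PEA1 each differed from the next lower line, whereas PEO4 and PEO1, and A2780 and PEA2, did not differ beyond their spread. POLH (chr6:43543801-43544800) was by TSS window the least open member in A2780 (1.53 ± 0.18 FPKM) and PEO1 (3.77 ± 0.66), and reached 6.54 ± 0.77 in PEO4. Its adjoining upstream window was more open in A2780, at 1.97, 2.03 and 2.00 FPKM.

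The 3 genes whose TSS windows were most like that of REV3L, the member of widest range, across the 18 libraries, by Pearson's r on the log2 scale among 12712 windows, were TNFAIP3 (r = 0.995), GCLM (0.994) and HECA (0.993). For ERCC4, next in range, they were UBE4B (r = 0.996), ENSG00000170846 (0.993) and ZBTB20 (0.992). The libraries share large steps between lines, so 29.0% of windows exceeded 0.9 with REV3L and 25.0% with ERCC4.

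The next comparison followed the members from A2780 to CP70. At the TSS, 4 of 10 members were higher in CP70, namely REV3L, ERCC1, POLH and DDB2, 0 were lower and 6 did not pass the threshold (limma, adjusted p below 0.05), whereas centring each library on its median window left 1 higher and 1 lower. That centring subtracted 0.58 from every log2 change in this pair, 0.37 from those of the PEA pair and -0.34 from those of the PEO pair. In the same test 43.9% of all TSS windows were higher and 1.48% lower, so the members' share lies near the background. The median change was 0.45 (log2) over the members and 0.58 over all TSS windows.

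REV3L read 2.35, 2.73 and 2.15 FPKM in the 3 A2780 libraries and 9.09, 6.64 and 6.45 in the CP70 libraries, so the lines did not overlap. The change was 1.57 ± 0.30 (log2, SE; adjusted p = 4.33e-06), which is 2.96-fold on the log2(FPKM + 0.1) scale, and its percentile among TSS windows went from 61.3 to 93.5. Both neighbouring windows moved with it: the one centred at -1280 bp from the start rose from 0.705 ± 0.13 to 2.57 ± 0.66 FPKM (log2 1.71), and the one at 520 bp from 1.14 ± 0.17 to 4.02 ± 1.38 FPKM (log2 1.69). The 30 other windows tested in the same 5 Mb of chromosome 6 had a median change of 1.36, and with the median of the whole bin, REV3L's own windows included, removed from each change, REV3L was at 0.15 and no longer passed. Every value given with a 5 Mb median removed was computed in this way, and so differs slightly from a subtraction of the printed median. The bins were cut at fixed steps of 5 Mb along each chromosome, so a gene need not lie in the middle of its bin.

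ERCC1 read 1.78, 1.73 and 1.27 FPKM in A2780 and 5.15, 2.39 and 3.22 in CP70, again without overlap, a change of 1.07 ± 0.27 (adjusted p = 0.00059). POLH went from 1.60, 1.67 and 1.32 FPKM to 3.94, 2.57 and 2.30, a change of 0.87 ± 0.26 (adjusted p = 0.0044). DDB2 went from 1.97, 1.94 and 1.72 FPKM to 3.41, 2.87 and 3.02, a change of 0.69 ± 0.27 (adjusted p = 0.024). All 3 separated the lines completely, and the medians of their 5 Mb bins were 0.71, 0.73 and 0.66, beside 0.59 over all windows tested. With the 5 Mb median removed, 0 of 10 members passed, beside 0.960% of all TSS windows higher and 2.55% lower. Under median centring REV3L stayed higher (0.99) and ERCC5 passed as lower (-0.91), while the split over all TSS windows became 5.54% higher and 8.28% lower.

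The other 6 members gave differences of 0.52 (ERCC2), 0.38 (ERCC4), 0.23 (XPA), 0.070 (ERCC3), 0.049 (XPC) and -0.33 (ERCC5), none past the threshold. Except for ERCC5, these differences turned negative under median centring, quantile normalization, centring on TSS windows and removal of the 5 Mb median. Leaving out A2780 replicate 3, the deepest library, left 2 members past the threshold, REV3L and ERCC1, whereas leaving out CP70 replicate 1 left 4. DDB2 did not pass without any 1 of the 3 A2780 libraries (0.64 to 0.73), and ERCC2 passed as higher without CP70 replicate 3 (0.81).

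Over all member windows tested in the A2780 pair, 27 of 42 were higher in CP70 and 0 lower, against 47.5% and 2.29% of all windows. At the study's thresholds (a log2 change above 2 in size and adjusted p below 0.001), 0 of 42 were called, with a background of 0.797%. At thresholds of 1 and 0.05, 8 of 42 passed, against 12.6% of all windows. Of these, 3 lay in the ERCC1 span, 1 beyond it at the start of PPP1R13L, 3 at REV3L and 1 near POLH, in GTPBP2.

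**Figure D2:**
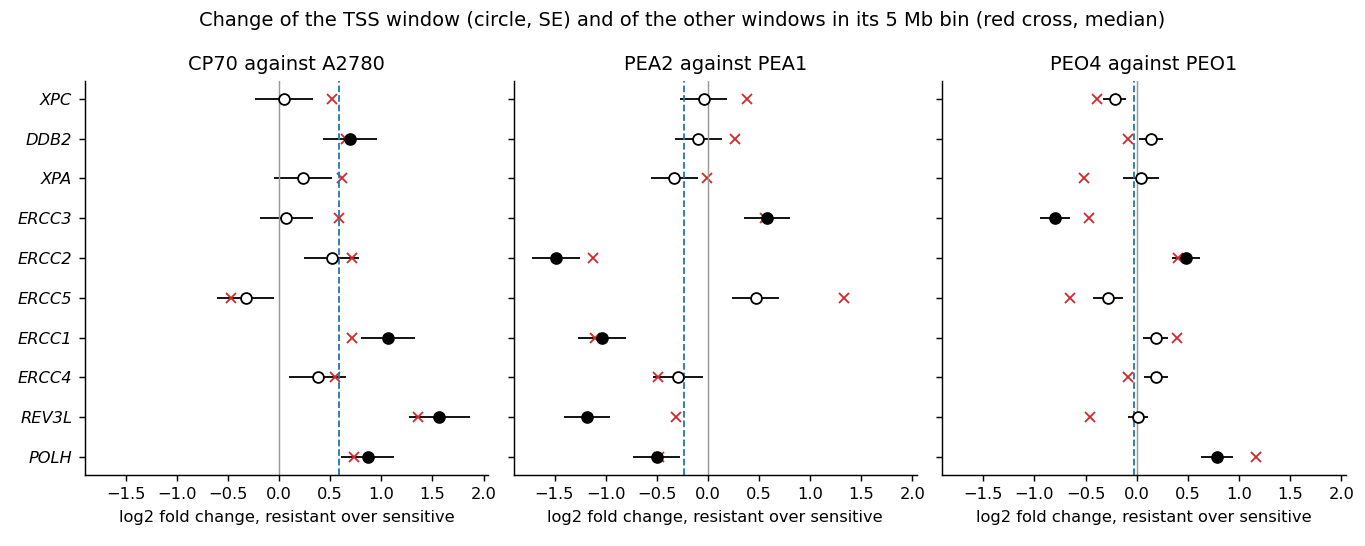
log2 fold change of each member's TSS window, resistant over sensitive line, with its SE, in the 3 pairs; filled circles passed an adjusted p of 0.05, red crosses give the median change of the other windows in the same 5 Mb, and the dashed line is the median over all TSS windows. Every filled circle lies on the same side of 0 as its red cross.

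From PEA1 to PEA2 the balance was the other way. ERCC2, REV3L, ERCC1 and POLH were lower in PEA2 and ERCC3 was higher, while 5 members did not pass (8 lower and 0 higher under median centring). Among all TSS windows 35.8% were lower and 17.6% higher, and the median change was -0.31 over the members against -0.24 over all TSS windows.

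ERCC2 fell furthest, from 4.52, 3.93 and 3.02 FPKM in the PEA1 libraries to 1.26, 1.39 and 1.198 in PEA2, with no overlap. The change was -1.49 ± 0.23 (adjusted p = 9.59e-10), and ERCC2 went from percentile 62.8 to 12.4 of TSS windows. The adjoining window, centred at -570 bp from the start, fell from 2.10 ± 0.40 to 0.561 ± 0.11 FPKM (log2 -1.74). ERCC1 is a near neighbour of ERCC2 on chromosome 19 and went from 4.04, 3.40 and 3.12 FPKM to 2.03, 1.39 and 1.60, a change of -1.04 ± 0.23 (adjusted p = 2.17e-05). Both genes lie in the same 5 Mb bin. Its median change was -1.12 without the windows of ERCC2 and -1.10 without those of ERCC1. With the bin median removed the values were -0.37 for ERCC2 and 0.084, of the opposite sign, for ERCC1, neither past the threshold.

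REV3L read 5.32, 4.92 and 3.69 FPKM in PEA1 and 2.20, 1.73 and 2.00 in PEA2. The lines did not overlap, the change was -1.18 ± 0.23 (adjusted p = 8.04e-07), and its percentile fell from 75.4 to 32.2. The 5 Mb bin of REV3L had a median change of -0.31 in this pair, beside 0.31 over all windows tested. REV3L stayed lower (-0.81) with the median of the whole bin, its own windows included, removed. Under that removal 33.1% of all TSS windows were lower and 5.69% higher. REV3L was past the threshold in all 16 alternatives in which it was tested.

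POLH went from 3.65, 3.74 and 2.88 FPKM to 2.58, 2.49 and 2.09, a change of -0.50 ± 0.23 (adjusted p = 0.046) beside a 5 Mb median of -0.48. This call was lost when PEA1 replicate 1 or 2, or any 1 of the 3 PEA2 libraries, was left out, with changes from -0.62 to -0.41 over the omissions. ERCC3, the TFIIH helicase, read 3.11, 2.77 and 1.34 FPKM in PEA1 and 3.41, 2.95 and 4.04 in PEA2, so the lines overlapped. Its change was 0.58 ± 0.23 (adjusted p = 0.020) beside a 5 Mb median of 0.56. It rested on PEA1 replicate 3, without which it was 0.22 and did not pass, and it also missed the threshold without PEA2 replicate 3 (0.46). The adjoining upstream window of ERCC3 was higher too (log2 0.84, adjusted p = 0.0016), again with overlap.

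ERCC5 (0.47), XPA (-0.33), ERCC4 (-0.29), DDB2 (-0.093) and XPC (-0.043) did not pass in this pair. ERCC4 (-0.59) and XPA (-0.47) passed as lower without PEA1 replicate 3, and ERCC5 passed as higher without PEA1 replicate 2 (0.61) or PEA2 replicate 3 (0.62). The 5 Mb around ERCC5 had a median change of 1.33, and with the median of the whole bin removed, ERCC5's own windows included, ERCC5 was lower in PEA2 (-0.72, adjusted p = 0.0074). With the bin median removed, 33.1% of all TSS windows were lower and 5.69% higher. The members lower in that setting were 2, REV3L and ERCC5, so the members' share does not exceed the background. Under median centring 62.4% of all TSS windows were lower and 11.6% higher.

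Over all member windows tested in the PEA pair, 33 of 51 were lower in PEA2 and 4 higher, against 21.4% and 43% of all windows. The ERCC1 span supplied 19 of the 33 and its 10000 bp extensions, in PPP1R13L, POLR1G and RTN2, another 4, since every window tested there was lower in PEA2. At thresholds of 1 and 0.05, 27 of 51 passed, 25 of them lower, against 39% of all windows.

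At the study's thresholds 1 of 51 member windows was called, with a background of 12.7%. This window (chr19:45971101-45972100) lies in the ERCC1 annotation through a long transcript, but holds the start of FOSB, an AP-1 transcription factor gene, and is centred at -44426 bp from the ERCC1 start. It read 6.12, 6.29 and 3.12 FPKM in PEA1 and 0.605, 1.04 and 1.15 in PEA2, without overlap, a change of -2.33 ± 0.23 (adjusted p = 5.99e-22). The windows on either side fell as well, by 1.90 and 1.87 on the log2 scale. With the 5 Mb median removed the FOSB window was at -1.21, short of the study's threshold on size. No member window was called with a pseudocount of 0.5, with an upper limit on the mean of a window or with a minimum mean of 5 FPKM. The FOSB window's mean lies below that minimum, so it was not tested there. Leaving out PEA1 replicate 3 raised the number of member windows called to 3, and leaving out PEA1 replicate 1, PEA2 replicate 2 or PEA2 replicate 3 raised it to 2. In the PEO pair the same window rose, from 6.42 ± 0.16 to 12.4 ± 1.42 FPKM (log2 0.93).

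ERCC4 had the opposite pattern downstream of the gene. A pair of adjoining windows outside any annotated exon, centred 37290 and 38190 bp from its start, were more open in PEA2 while the ERCC4 start did not pass the threshold. The nearer one went from 1.86 ± 0.55 to 5.13 ± 0.86 FPKM (log2 1.44). The farther one (chr16:14051701-14052700) read 1.31, 1.06 and 0.671 FPKM in PEA1 and 4.34, 3.12 and 3.86 in PEA2, without overlap. Its change was 1.83 ± 0.24 (adjusted p = 1.01e-13), against a 5 Mb median of -0.49. The lines of the A2780 pair averaged 0.294 and 0.360 FPKM there, and those of the PEO pair 3.74 and 2.95.

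**Figure D3:**
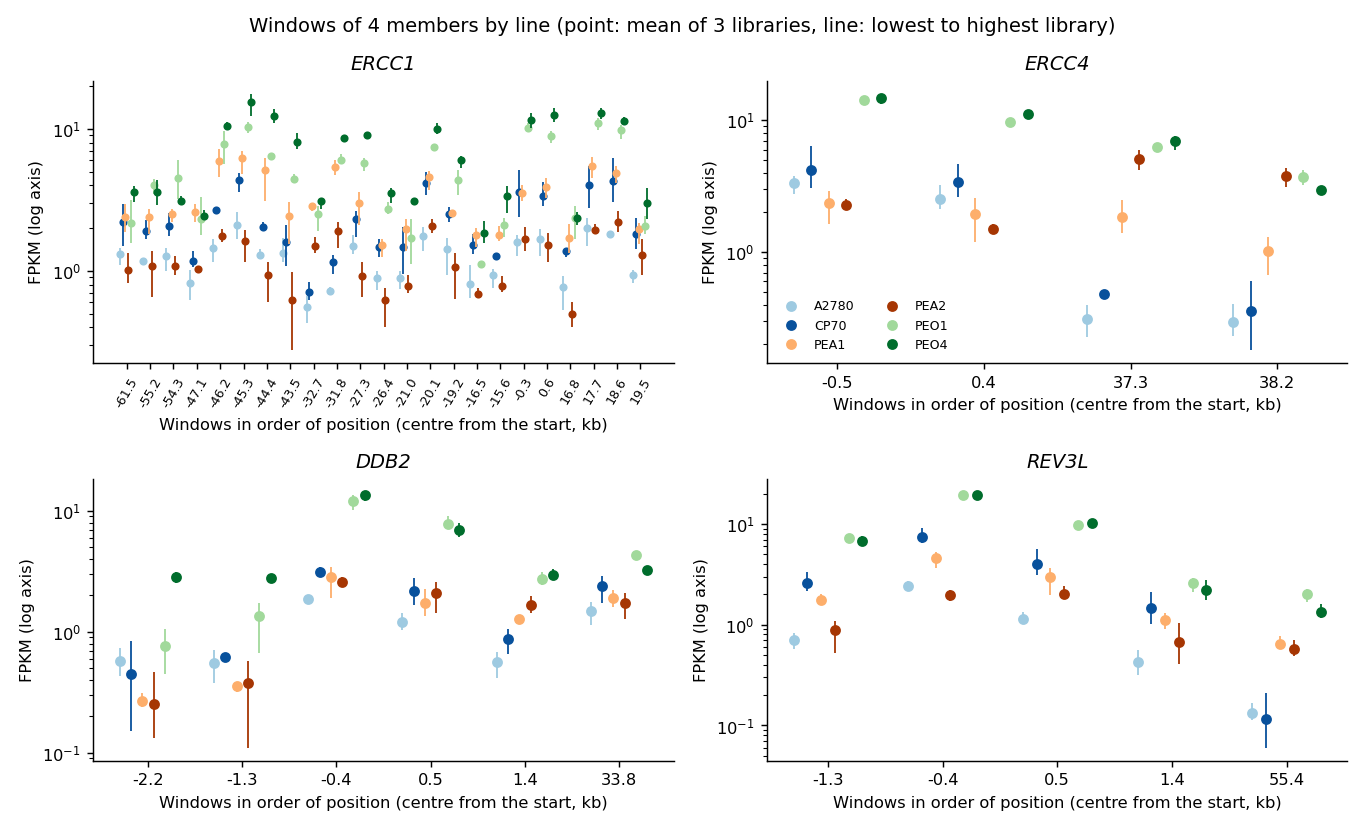
FPKM of every window in the table for ERCC1, ERCC4, DDB2 and REV3L, in order of position and labelled by the distance of the window centre from the start in kb, with points at the mean of the 3 libraries of a line and bars from the lowest to the highest library. PEA2 lies below PEA1 at every ERCC1 window, PEA2 lies above PEA1 at the 2 downstream windows of ERCC4, and PEO4 lies above PEO1 at the 2 upstream windows of DDB2.

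In the PEO pair, 2 members were higher in PEO4 (POLH and ERCC2), 1 was lower (ERCC3) and 7 did not pass (7 higher and 1 lower under median centring), against 26.4% of all TSS windows higher and 31% lower. The median change was 0.091 over the members and -0.023 over all TSS windows.

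POLH read 3.74, 4.45 and 3.12 FPKM in PEO1 and 6.80, 7.15 and 5.68 in PEO4, a complete separation. Its change was 0.79 ± 0.16 (adjusted p = 3.16e-05), and its percentile rose from 23.5 to 45.8. All 5 POLH windows tested were higher, including the one on the XPO5 side of the shared promoter (4.45 to 8.44 FPKM, log2 0.91) and 2 in GTPBP2 (log2 1.47 and 1.13). The 187 other windows tested in these 5 Mb had a median change of 1.16, and relative to it POLH had the opposite sign (-0.36) and did not pass.

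ERCC2 read 6.07, 7.33 and 6.91 FPKM in PEO1 and 9.88, 11.2 and 7.57 in PEO4, a change of 0.48 ± 0.14 (adjusted p = 0.0023) beside a 5 Mb median of 0.40. ERCC3 read 6.37, 7.07 and 6.58 FPKM in PEO1 and 3.31, 4.08 and 3.99 in PEO4. Its change was -0.80 ± 0.15 (adjusted p = 1.06e-05), and the adjoining upstream window fell from 2.75 to 1.54 FPKM (log2 -0.79). The 5 Mb median there was -0.47, and with it removed ERCC3 was at -0.33 and did not pass. These 3 calls held without any 1 of the 6 libraries, and ERCC5 passed as lower without PEO1 replicate 3 (-0.41). With the bin medians removed none of the 3 held (ERCC2 was at 0.076), and REV3L (0.41), XPA (0.52) and ERCC5 (0.35) passed as higher instead. Under that removal 31.8% of all TSS windows were higher and 9.61% lower, so the members' share lies near the background.

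REV3L, the most open member in both lines, read 21.0, 18.3 and 18.5 FPKM in PEO1 and 19.1, 20.01 and 19.3 in PEO4, so the lines overlapped. Its difference of 0.016 ± 0.098 was the smallest of the 10, although the windows in its 5 Mb had a median of -0.46. XPC (-0.22), ERCC5 (-0.28), ERCC1 (0.18), ERCC4 (0.19), DDB2 (0.14) and XPA (0.040) did not pass either. Under median centring 52.0% of all TSS windows were higher and 15.6% lower.

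Over all member windows, 22 of 57 were higher in PEO4 and 8 lower, against 21.9% and 45.8% of all windows. The ERCC1 span supplied 12 of those higher, from 19 windows tested, and its extensions 2 of 4. Of the member windows, 5 exceeded the deposit limit of 2 FPKM in 1 line only, PEO1 or PEO4, so these counts are a description. At thresholds of 1 and 0.05, 5 of 57 passed, 4 higher and 1 lower, against 33.3% of all windows, and at the study's thresholds 0 of 57 with a background of 8.49%. Leaving out PEO1 replicate 1 or 2 gave 1 call, each time at a window above the deposit limit in 1 line only. Of the 5 windows past 1 and 0.05, 2 at DDB2 and 1 in ERCC5 are also of that kind, and 2 lie near POLH.

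The largest difference upwards lay upstream of DDB2. The window centred at -2224 bp from its start (chr11:47233801-47234800), outside any annotated exon, read 0.809, 1.047 and 0.446 FPKM in PEO1 and 2.91, 3.12 and 2.54 in PEO4, a log2 difference of 1.83. The next window towards the gene was at 1.34 ± 0.59 FPKM in PEO1 and 2.78 ± 0.22 in PEO4 (log2 1.10). The DDB2 start itself differed by 0.14 and the 5 Mb around it had a median of -0.084. In the other 4 lines no library exceeded 0.838 FPKM in the window at -2224 bp. Inside ERCC5, 24618 bp from its start, a window lying wholly within annotated exon (chr13:103522501-103523500) read 1.72, 3.49 and 3.57 FPKM in PEO1 and 0.639, 0.720 and 0.897 in PEO4, a log2 difference of -1.77 beside a 5 Mb median of -0.65. Both DDB2 windows exceeded 2 FPKM only in PEO4 and the ERCC5 window only in PEO1, so they entered the table through the line in which they are high and had to differ, and no test is given for them.

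**Figure D4:**
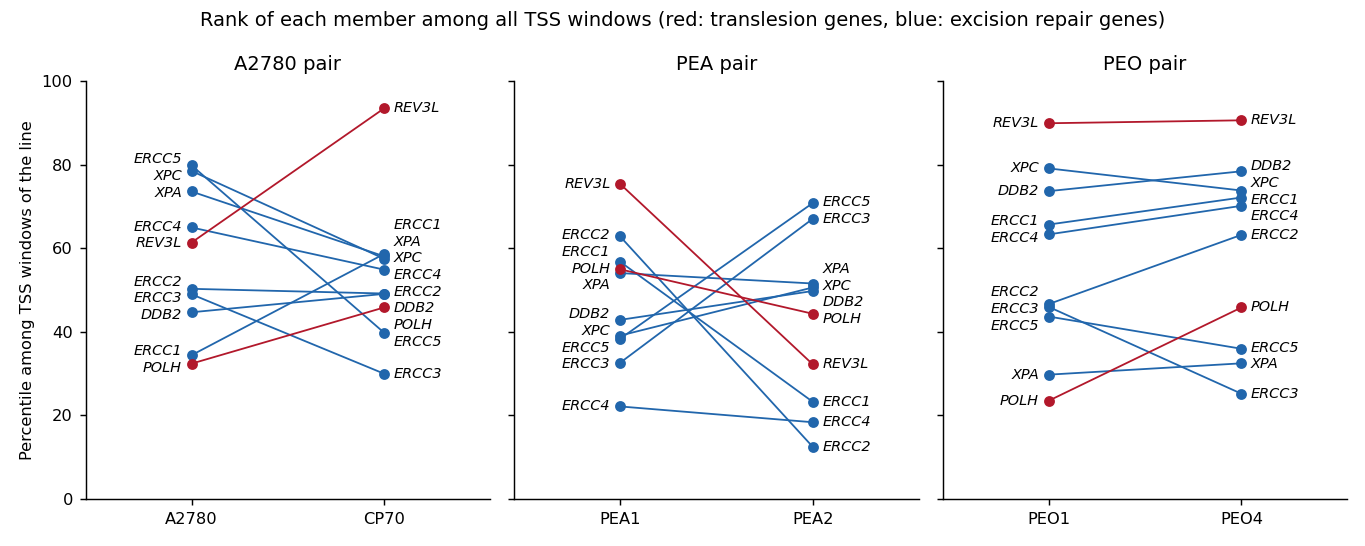
Percentile of each member's line mean among all TSS windows of the same line, with sensitive and resistant line joined, for the 3 pairs. REV3L climbs from 61.3 to 93.5 in the A2780 pair, falls from 75.4 to 32.2 in the PEA pair and stays near 90 in the PEO pair.

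Whether the changes differed between pairs was tested on the difference between their log2 changes. Between the PEA and PEO pairs 6 of 10 members differed, against 60.6% of all TSS windows. Between the PEA and A2780 pairs it was also 6 of 10, against 56.9%, and between the PEO and A2780 pairs 3 of 10, against 43.8%. REV3L and ERCC1 differed in all 3 comparisons, which share lines. Without A2780 replicate 3 the count between the PEO and A2780 pairs was 1. For REV3L the PEA change minus the A2780 change was -2.75 (log2, SE 0.34, adjusted p = 1.52e-11). XPA, XPC and ERCC4 differed in none of the 3 comparisons, with SEs of 0.25 to 0.35.

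Taking the 6 line means, resistant against sensitive with the pair as a block, 0 of 10 members changed over the 3 pairs (adjusted p = 0.999965 for each in limma, smallest unadjusted p 0.42 at POLH). Over all 74141 windows the test called 0%, with a smallest adjusted p of 0.17, and 0.857% of TSS windows had an unadjusted p below 0.05, against 0 of the 10 members.

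The other genes of both pathways were counted by TSS window in the same fits. Of 40 further excision repair genes, 38 were in the table. In the A2780 pair 18 were higher in CP70 and 0 lower, with a median of 0.60, against 43.9% and 1.48% of all TSS windows. In the PEA pair 8 were higher in PEA2 and 16 lower of 37 tested (median -0.33), against 17.6% and 35.8%. In the PEO pair 12 were higher in PEO4 and 6 lower (median -0.032), against 26.4% and 31%. All 17 translesion genes were in the table, 4 of them on both lists. Of these, 9 were higher and 0 lower in the A2780 pair, 2 higher and 5 lower in the PEA pair, and 5 higher and 7 lower in the PEO pair. None of either list was called at the study's thresholds in any pair, where 0.244%, 1.82% and 1.06% of all TSS windows were called in the A2780, PEA and PEO pairs.

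The largest changes among them are named with the median of their own 5 Mb. From A2780 to CP70, DDB1, the partner of DDB2 in lesion recognition, rose by 1.32 (5 Mb median 0.85). The small TFIIH subunit GTF2H5 rose by 1.23 (1.53) and SHPRH, a ligase that modifies PCNA, by 1.199 (1.39), both on chromosome 6 like REV3L. From PEA1 to PEA2, XRCC1, a scaffold for strand-break ligation on chromosome 19 like ERCC1 and ERCC2, fell by 1.43 on the log2 scale (5 Mb median -1.14). The single-strand binding subunit RPA1 fell by 1.31 (-1.42), and the TFIIH subunit GTF2H4 fell by 1.16 (-0.83). Those that rose were CCNH, a cyclin of the TFIIH kinase, by 1.32 (1.98), and the transcription-coupled repair genes ERCC8 by 1.30 (1.45) and ERCC6 by 1.10 (1.36). From PEO1 to PEO4, UBE2B, the conjugating partner of RAD18, rose by 1.10 (0.76), GTF2H4 by 1.054 (1.25) and the DNA ligase LIG1 by 0.62 (0.40). The centrin CETN2, a partner of XPC, fell by 1.19 (-1.12), the sliding clamp PCNA fell by 0.97 (-1.35) and HLTF, another PCNA ligase, fell by 0.88 (-1.34). Each of these had the sign of its own 5 Mb median.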

How the data were processed

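ATAC-seq was measured in 18 libraries, 3 for each of 6 lines. The authors kept reads placed once on hg19 by Bowtie2, dropped Picard duplicates, blacklisted regions and the mitochondrial genome, and counted with featureCounts in 1000 bp windows with a step of 900 bp. Tool versions and a transposase shift are not given in the sources used here. The deposited values are FPKM, which equal RPM because every window has this length. In all 18 libraries 100% of values were whole multiples of 1 read (within 0.05 reads), which gave back the reads. Each deposited window exceeded 2 FPKM in at least 2 libraries, which may be of a single line. Sites above that limit in fewer libraries are not seen here. Window numbers matched GRCh37 chromosome lengths at 23 of 23 steps. Genes and starts came from GENCODE release 44 mapped to GRCh37, counting from 1.

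Lines were compared with limma 3.58.1 (mean-variance trend) in R 4.3.3 on log2(FPKM + 0.1), over all windows with a mean above 1 FPKM in the libraries of the fit, with Benjamini-Hochberg adjustment over all of them. Fold changes on that scale understate changes at low windows. Alternatives left out each library in turn, rescaled the libraries, removed the median change of each 5 Mb bin, or ran edgeR 4.0.16 and voom on the recovered reads. The scripts were tested on simulated data. Replicate libraries differed by more than sampling noise (chi-square per window 1.07 to 2.10) and all were kept. Reads are not independent molecules, so read numbers give counting error only.

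The members, the gene lists and the markers were chosen with earlier results of these data known. Named were every TSS window, the member windows past the study's thresholds or, with fewer than 3 of these, up to 5 past thresholds of 1 and 0.05, up to 3 other pathway genes per pair and direction, and 3 genes most like each of the 2 members of widest range. A few neighbouring windows, chosen after their values were seen, are given beside these.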

Additional observations from a re-analysis of the deposited data

Results flagged for a closer look

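The change from sensitive to resistant line differed between pairs at 15 combinations of member and pair comparison, by limma's test of the difference (adjusted p below 0.05). Values are the difference of the log2 fold changes at the TSS window, the first pair minus the second, and the 3 comparisons share lines. For the PEA pair minus the PEO pair it was -1.22 at ERCC1, -1.96 at ERCC2, 1.38 at ERCC3, 0.75 at ERCC5, -1.20 at REV3L and -1.29 at POLH. For the PEA pair minus the A2780 pair it was -2.10 at ERCC1, -2.00 at ERCC2, 0.80 at ERCC5, -0.79 at DDB2, -2.75 at REV3L and -1.37 at POLH. For the PEO pair minus the A2780 pair it was -0.88 at ERCC1, -0.87 at ERCC3 and -1.55 at REV3L. The median difference over all TSS windows was -0.20 for the PEA pair minus the PEO pair, -0.79 for the PEA pair minus the A2780 pair and -0.56 for the PEO pair minus the A2780 pair. In the same order, 60.6%, 56.9% and 43.8% of all TSS windows passed this test, so the members' shares lie near or below the background.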

How the results depend on the processing

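Of the counts recomputed under an alternative, 161 stayed within 1.5 times the reported count and 33 did not. A minimum mean of 5 FPKM left 0 member TSS windows tested in the A2780 and PEA pairs (0 changed in each, 0 differing between them), 0 called in the PEA pair, 5 of 5 differing among lines and 3 differing between the PEA and PEO pairs. The FOSB window fell below this minimum in the PEA pair and was not tested. An upper limit on the mean of a window gave 0 changed in the A2780 pair (0 tested) and 0 called in the PEA pair. Centring each library on its median window gave 2, 8 and 8 changed members in the A2780, PEA and PEO pairs, with 5 windows called from PEA1 to PEA2 and 1 from PEO1 to PEO4. Beside these, 5.54%, 11.6% and 52.0% of all TSS windows were higher in the 3 pairs and 8.28%, 62.4% and 15.6% lower. Quantile normalization gave 6 changed members in the PEO pair, 6 called windows from PEA1 to PEA2 and 1 from PEO1 to PEO4, and 7 members differing between the PEO and A2780 pairs. It made 40.9% of all TSS windows higher and 22.1% lower in the PEO pair. The PEO window called under both scalings was the DDB2 window at -2224 bp, above the deposit limit only in PEO4. Removing the 5 Mb median left 0 changed in the A2780 pair and 2 in the PEA pair. Of all TSS windows, 0.960% were then higher and 2.55% lower in the A2780 pair, and 5.69% higher and 33.1% lower in the PEA pair. In the PEA pair 2 windows were called with TSS centring, 0 with a pseudocount of 0.5 and 2 with voom. Thresholds of 1 and 0.05 gave 8, 27 and 5 called windows in the A2780, PEA and PEO pairs. The cause of these shifts was not tested, apart from the smaller number of windows tested.

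Signs turned under scaling mostly in the A2780 pair. For ERCC2, ERCC3, ERCC4, XPA and XPC in that order, the log2 values became -0.063, -0.51, -0.20, -0.35 and -0.53 with median centring, -0.12, -0.54, -0.23, -0.38 and -0.57 with quantile normalization, -0.081, -0.53, -0.22, -0.36 and -0.55 with TSS centring, and -0.20, -0.51, -0.17, -0.38 and -0.46 with the 5 Mb median removed, which also gave 0.14 for ERCC5. Of these, ERCC3 and XPC passed as lower with quantile normalization and XPC with TSS centring. In the PEA pair, removing the 5 Mb median gave 0.084 for ERCC1, 0.024 for ERCC4 and -0.72 for ERCC5, TSS centring gave 0.21 for XPC and 0.16 for DDB2, and 2 kb around the start gave 0.14 and 0.12 for these. In the PEO pair, median centring gave 0.065 for ERCC5 and 0.13 for XPC, removing the 5 Mb median gave -0.22 for ERCC1, 0.35 for ERCC5, 0.17 for XPC and -0.36 for POLH, and 2 kb around the start gave -0.0077 for REV3L.

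Leaving out each library in turn gave 2 to 5 changed members in the A2780 pair, 1 to 3 called windows in the PEA pair, 0 to 1 in the PEO pair, and 1 to 3 members differing between the PEO and A2780 pairs. A2780 replicate 3 decided the lowest of these (2 changed, 1 differing). The PEA count was 3 without PEA1 replicate 3, and 2 without PEA1 replicate 1, PEA2 replicate 2 or PEA2 replicate 3, while the PEO count was 1 without PEO1 replicate 1 or 2. That PEO call lay each time at a window above 2 FPKM in 1 line only. Signs also turned for members that did not pass: ERCC3 ranged from -0.24 to 0.23 and XPC from -0.30 to 0.34 in the A2780 pair, XPC from -0.20 to 0.056 and DDB2 from -0.35 to 0.061 in the PEA pair, and XPA from -0.12 to 0.27 and REV3L from -0.020 to 0.080 in the PEO pair.

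Same-numbered replicates of a pair correlated at -0.41 to 0.045 in their deviations. In the PEO pair the values were 0.016, 0.045 and 0.038, above the highest with another number (-0.0041, -0.0068 and -0.0093), though all are small. In the A2780 and PEA pairs another number was always higher. The numbers were not used as a pairing in the main fits. A replicate block gave 4 changed members in each of the A2780, PEA and PEO pairs, without POLH in the PEA pair and with XPC, lower, in the PEO pair. Member TSS windows held the fewest reads in PEA2 (23 to 91 per library, against 74 to 192 in A2780).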
